A study of Mus musculus with 2 samples.

Results

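The miR-23, miR-27 and miR-24 guide strands come from a pair of paralogous gene clusters, called a and b, and 5 mature mouse (mmu) miRNAs represent them on the array: mmu-miR-23a-3p and mmu-miR-27a-3p of the a cluster, mmu-miR-23b-3p and mmu-miR-27b-3p of the b cluster, and mmu-miR-24-3p, which both clusters make. They were taken by name from the array design and are 5 of its 1881 mouse miRNAs. The RNA came from exosomes, small vesicles released by cells, that were collected from medium of the LLC line (Lewis lung carcinoma), which was derived from a lung tumour of a mouse. This line had spent 24 h in medium without serum and with 5 µM cisplatin, a platinum drug that cross-links DNA. Both independent experiments, 2 samples in all, form a single group, with a one-colour array each (array 1 and array 2). Cells without cisplatin were not analysed here. The data therefore show which members gave a signal and how that signal repeated, not what cisplatin changed, and with 2 arrays no test was made.

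As background, a miRNA guide strand pairs through its seed, the bases next to its 5′ end, with sites in target mRNAs and lowers their translation or stability. miR-23 and miR-27 each have an a and a b copy with a common seed, so the copies are expected to share targets. In human cells miR-23a and miR-23b repress glutaminase, an enzyme of glutamine use, miR-27 represses the transcription factor FOXO1, and miR-24 represses the histone variant H2AX, which marks broken DNA. The other strand of each hairpin, the passenger strand, is usually degraded.

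The sequences below show how close the members are, with the seed (bases 2 to 8 from the 5′ end) in capitals. RefSeq (GRCm38.p6) gave a mature sequence for 4 of the 5 members, all on the plus strand. These are miR-23a-3p at chr8:84208563-84208583, miR-27a-3p at chr8:84208727-84208747, miR-27b-3p at chr13:63300760-63300780, and miR-24-3p at both chr8:84208875-84208896 and chr13:63301251-63301272.
mmu-miR-23a-3p: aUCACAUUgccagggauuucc
mmu-miR-27a-3p: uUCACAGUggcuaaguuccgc
mmu-miR-27b-3p: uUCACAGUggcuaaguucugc
mmu-miR-24-3p: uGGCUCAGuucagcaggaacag
miR-27a-3p and miR-27b-3p have the same seed and are identical at 20 of 21 bases. They differ by C19U, counted from the 5′ end with the miR-27a-3p base first. The probe sequences were not used here, and whether a probe made for one copy also binds the other was not tested. miR-24-3p has the same sequence at both loci, so its signal cannot be divided between the clusters.

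The a cluster (Mir23a, Mir27a and Mir24-2) spans 404 bases of chromosome 8, from 84208518 to 84208921, and overlaps no annotated gene outside the miRNAs. Its nearest neighbours are Zswim4, 2021 bases away at higher coordinates, and Nanos3, 31966 bases away at lower ones. The b cluster (Mir23b, Mir27b and Mir24-1) spans 792 bases of chromosome 13, from 63300484 to 63301275, and lies inside the protein-coding gene Aopep. On the opposite strand of each Mir24 hairpin lies a Mir3074 hairpin. miR-3074-5p, which comes from both of these, is complementary to miR-24-3p over a stretch of 20 bases.

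**Figure D1:**
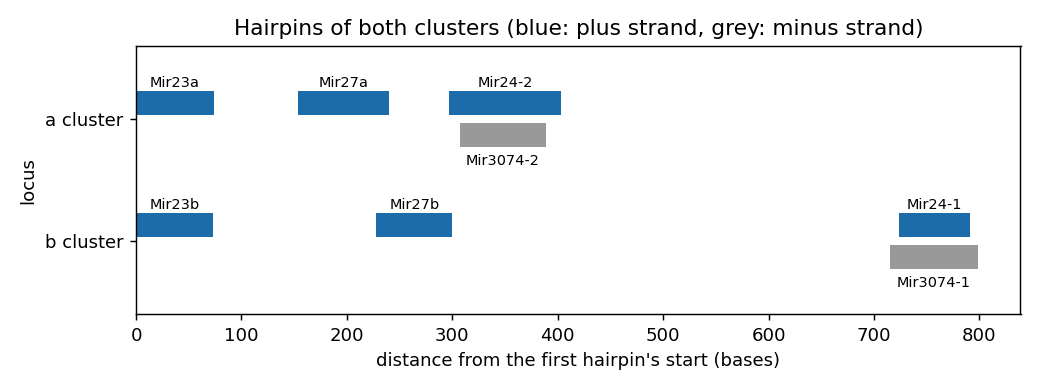
Positions of the miRNA hairpins of the a cluster (top) and the b cluster (bottom), as the distance in bases from the start of the first hairpin; blue bars lie on the plus strand and grey bars on the minus strand. The a cluster spans 404 bases and the b cluster 792, with Mir27 between Mir23 and Mir24 in both and a Mir3074 hairpin opposite each Mir24 hairpin.

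Each member was read by 2 probes with 15 spots each on every array. Of the members' 150 spots, 149 on array 1 and 147 on array 2 were used, the others being marked as outliers by the scanner software. No miRNA spot was saturated. A miRNA counted as detected on an array when the total signal of at least 1 of its probes was over 3 times its error. The error given in the files contains a share of 0.1 of the signal, so this ratio cannot exceed 10, and the highest on either array was 9.998. As a check of the source, the red cell miRNAs miR-451a and miR-144-3p and the epithelial miR-200c-3p and miR-141-3p were detected on neither array. Their probe totals reached at most 1.06 times their errors. Most miRNAs were not detected either, as 16.6% of all 1881 passed on array 1 and 10.7% on array 2. The leukocyte miRNA miR-223-3p stayed below the limit of 3 on both arrays, with 2.57 times its error on array 1 and 2.19 times on array 2. Another leukocyte miRNA, miR-142a-3p, passed on array 1 with 6.89 times its error and missed the limit on array 2 with 2.01 times. Its part in the members' signal was not tested.

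Of the 5 members, 4 were detected on both arrays, against 10.7% of all 1881 miRNAs (201). Both a cluster members and miR-24-3p were detected on each array with both probes. Of the b cluster members, miR-23b-3p was detected on both arrays but with only 1 of its 2 probes on array 2, and miR-27b-3p on array 1 alone. On array 1 all 5 members passed, where 16.6% of all miRNAs did, and on array 2 4 passed, where 10.7% did. Some stricter rules on both arrays ended the call of miR-23b-3p. With probe totals over 6 times their error 3 members passed, against 4.52% of all miRNAs, and 3 passed with the majority of their spots well above background, against 4.68%. With a mean intensity above the negative controls by 3 SD, 4 members passed, miR-23b-3p among them, against 8.35%.

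miR-24-3p was the member farthest above its error. Its first probe had spot intensities of 115 to 133 with a median of 126 on array 1, and of 21.6 to 35.1 with a median of 28.8 on array 2. Its second probe ran from 179 to 225 with a median of 194 on array 1, and from 39.5 to 50.7 with a median of 47.0 on array 2. The ranges of the arrays did not overlap for either probe. This also held for both probes of miR-23a-3p, miR-27a-3p and miR-23b-3p and for the brighter probe of miR-27b-3p. Of the 201 miRNAs detected on both arrays, 175 were brighter on array 1. How many of them had ranges without overlap was not counted. All spots used, 29 on array 1 and 28 on array 2, were well above background by the scanner software's flag, which held on both arrays for no other member. The probe totals were 9.75 and 9.88 times their errors on array 1, and 6.95 and 8.46 times on array 2.

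miR-23a-3p had a dim and a bright probe. The dim probe gave 44.2 to 55.2 with a median of 48.7 on array 1, and 6.64 to 16.0 with a median of 11.5 on array 2. The bright probe gave 163 to 200.4 with a median of 181 on array 1, and 28.5 to 53.9 with a median of 40.5 on array 2. Array 1 lay above array 2 without overlap at both probes. On array 1, 30 of 30 spots were well above background, and on array 2 17 of 30 were, 15 of them from the bright probe. The dim probe passed detection on array 2 with a total of 3.54 times its error, close to the limit of 3, and the bright probe with 8.07 times.

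miR-27a-3p, its neighbour in the a cluster, had nearly the same pattern. Its dim probe ranged from 29.6 to 47.3 with a median of 39.8 on array 1, and from 4.89 to 16.1 with a median of 11.98 on array 2. Its bright probe ranged from 143 to 168 with a median of 158 on array 1, and from 34.4 to 49.95 with a median of 44.2 on array 2. Again the arrays did not overlap. On array 2, 16 of 29 spots were well above background and the probe totals were 3.69 and 8.32 times their errors, against 30 of 30 spots and 8.08 and 9.84 times on array 1.

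The b cluster copies lay closer to background. The first probe of miR-23b-3p had intensities of 62.5 to 77.5 with a median of 69.7 on array 1, and of 8.15 to 23.6 with a median of 14.8 on array 2. Its second probe had 13.6 to 25.4 with a median of 20.8 on array 1, and 2.19 to 9.79 with a median of 5.07 on array 2. The probe totals were 9.28 and 5.79 times their errors on array 1, but 4.74 and 1.66 times on array 2, so the call on array 2 rests on 1 probe. Of 30 spots, 28 on array 1 and 8 on array 2 were well above background.

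miR-27b-3p was called through 1 probe on 1 array. That probe gave 23.04 to 35.3 with a median of 30.3 on array 1, where its total was 7.31 times its error, and 0.49 to 17.4 with a median of 6.01 on array 2, where it was 2.22 times. The other probe reached only 2.0 times its error on array 1 and 0.48 times on array 2, with median intensities of 6.05 and 0.89. On array 2 just 1 of 30 spots was well above background, and 9 had intensities under 1, which were set to 1 before taking log2. A mean signal of this miRNA on array 2 is therefore not well above background.

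**Figure D2:**
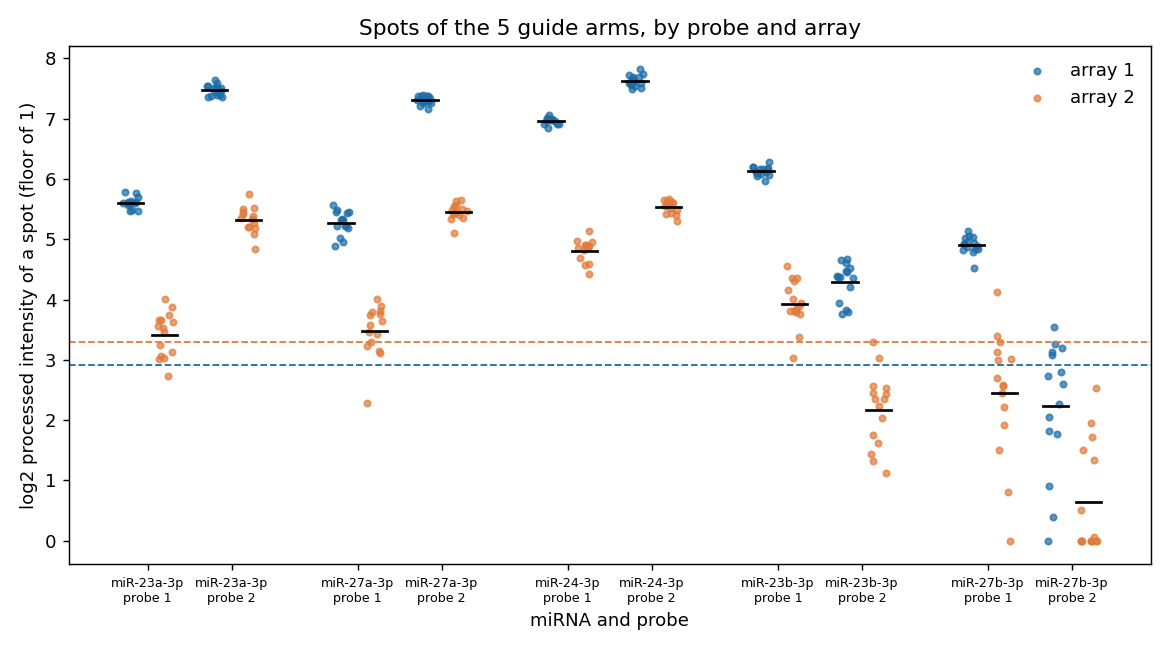
Log2 processed intensity (y axis, with a floor of 1 before log2) of every spot used, for each probe of the 5 members (x axis), array 1 in blue and array 2 in orange; black bars are means over spots and dashed lines mark the mean plus 3 SD of each array's negative-control spots (2.92 on array 1, 3.29 on array 2). Array 1 lies above array 2 at every probe, and on array 2 the means of both miR-27b-3p probes and of the second miR-23b-3p probe lie below the dashed line.

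**Figure D3:**
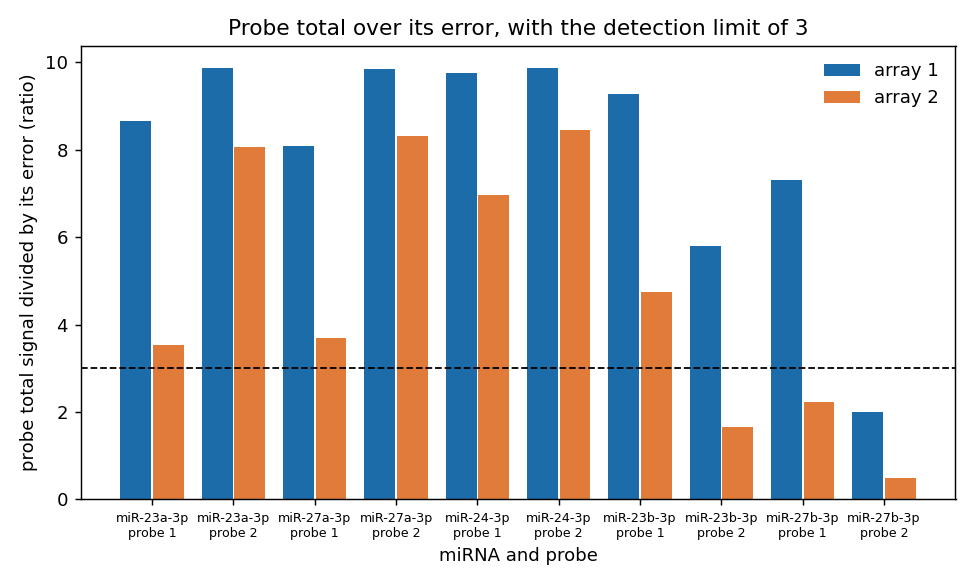
Probe total signal divided by its error (y axis, a ratio) for the 10 probes of the members (x axis), array 1 in blue and array 2 in orange, with the detection limit of 3 as a dashed line. On array 1, 9 probes pass, and on array 2, 7 probes pass, the exceptions there being the second probe of miR-23b-3p and both probes of miR-27b-3p.

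How bright a probe is depends on the probe itself, so these intensities do not rank the members by amount, and the lower b cluster values do not say that less of those miRNAs was present. The difference between the arrays within a probe removes brightness that multiplies the signal, but not background that adds to it, which matters for dim probes. With the negative-control mean subtracted, it moved from 2.16 to 2.51 for miR-23b-3p but from 2.12 to 2.18 for miR-24-3p. The array difference can also reflect the number of vesicles, the miRNA in each or the handling of the RNA, which cannot be told apart here. On the log2 scale, without scaling between arrays, miR-23a-3p had a mean signal over probes of 6.54 on array 1 and 4.37 on array 2. The levels were 6.29 and 4.47 for miR-27a-3p and 7.30 and 5.17 for miR-24-3p. They were 5.21 and 3.05 for miR-23b-3p, and 3.57 and 1.55 for miR-27b-3p. The 4 members detected on both arrays were all brighter on array 1. miR-27b-3p was not detected on array 2, so its difference does not rest on a detected signal there, and its value below depends on the floor.

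Array 1 minus array 2 was 2.17 ± 0.06 for miR-23a-3p and 1.82 ± 0.06 for miR-27a-3p of the a cluster, where the errors here and below are standard errors over spots and leave out the spread between experiments. It was 2.16 ± 0.10 for miR-23b-3p and 2.02 ± 0.23 for miR-27b-3p of the b cluster, and 2.12 ± 0.03 for miR-24-3p, the product of both. In linear terms array 1 was 4.503 times as bright for miR-23a-3p, 3.54 times for miR-27a-3p, 4.47 times for miR-23b-3p and 4.35 times for miR-24-3p. For miR-27b-3p the log2 difference ran from 0.28 with normexp, a background correction described below, to 2.47 with the median over spots. With a floor of 4 it was 1.37.

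For miR-23, how alike the copies were depended on how the levels were computed. From the mean of both probes, the array difference of miR-23a-3p exceeded that of miR-23b-3p by 0.01 ± 0.12 log2 units, less than its spot error. This rests in part on the second miR-23b-3p probe, which had 0 of 15 spots well above background on array 2. The value became 0.39 with normexp, a model-based background correction run with an offset of 50, -0.71 in the authors' deposited table, -0.22 with the negative-control mean subtracted and -0.37 from detected probes alone. In the mean of both probes, the gap between the miR-23a-3p and the miR-23b-3p signals, which includes the brightness of their probes, was 1.33 on array 1 and 1.32 on array 2. For miR-27, the a copy's difference minus that of the b copy was -0.20 ± 0.24, also less than its spot error. That value shows little, because miR-27b-3p was not detected on array 2. With a floor of 4 in place of 1 it became 0.45, and from the median over spots -0.68.

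Within the a cluster, the array difference of miR-27a-3p minus that of miR-23a-3p was -0.35 ± 0.09, and that of miR-24-3p exceeded that of miR-27a-3p by 0.30 ± 0.07. These gaps are 4 times their spot errors, or slightly more, but there is 1 pair of experiments and no estimate of how they vary between pairs. miR-24-3p differed from miR-23a-3p by -0.05 ± 0.07 and from miR-23b-3p by -0.04 ± 0.11, both within spot error. The gap to miR-23b-3p changed sign with the calculation. Array differences of miR-24-3p and miR-23b-3p were 1.19 and 0.57 with normexp, and 0.58 and 1.21 in the authors' deposited table. Whether cluster neighbours or paralogs were closer was not tested, and the order of these gaps changed with the calculation. miR-27a-3p minus miR-23a-3p was negative under every calculation, at -0.17 with normexp, -0.23 in the authors' deposited table and -0.31 from detected probes.

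Both probes of miR-23a-3p, miR-27a-3p and miR-24-3p were detected on both arrays, and each pair gave similar array differences although its probes differed in brightness. The bright probe of miR-23a-3p lay 1.87 log2 units above the dim one on array 1 and 1.90 above it on array 2. For miR-27a-3p this gap was 2.04 and 1.97, and for miR-24-3p 0.66 and 0.72. For miR-23b-3p, where the first probe was the brighter, the second minus the first was -1.83 on array 1 and -1.76 on array 2, where the second probe was not detected. The probes of miR-27b-3p disagreed, with array differences of 2.45 and 1.59, neither of them detected on array 2. Over the 8 probes of the 4 members detected on both arrays, the array difference ranged from 1.79 to 2.20. The disagreement between a miRNA's probes in array difference was 0.03 for miR-23a-3p, 0.06 for miR-27a-3p and 0.06 for miR-24-3p. Its median was 0.10 (quartiles 0.04 and 0.22) over the 122 miRNAs with 2 or more probes detected on both arrays.

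The members stood on the high side of the miRNAs detected on both arrays. Over all 201 of these the median array difference was 0.78 (quartiles 0.19 and 1.66), against 2.14 for the 4 members detected on both. All 4 differed by over 1 log2 unit, as did 42.3% of the 201. The 201 leave out 111 miRNAs detected on array 1 alone, miR-27b-3p among them, and 1 detected on array 2 alone. How these would move the median was not tested. The difference of miR-23a-3p was reached or exceeded by 16 of the 201, itself included, and that of miR-27a-3p by 41. The 26 miRNAs between these limits include the members, so the members' values were shared by many others. The 4 spike-in controls detected on both arrays differed by only 0.06 to 0.27. The 3 other miRNAs with differences closest to the members' median were miR-19b-3p at 2.13, miR-106b-5p at 2.13 and miR-103-3p at 2.16, none more than 0.02 away. This likeness is over 2 arrays only.

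**Figure D4:**
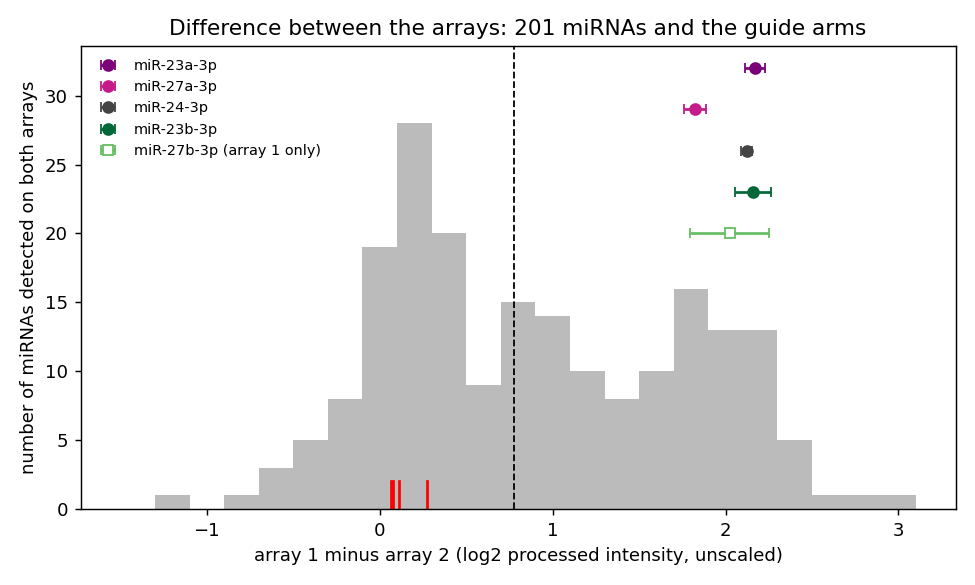
Histogram of array 1 minus array 2 (x axis, unscaled log2 units) for the 201 miRNAs detected on both arrays (y axis, number of miRNAs), with the median of 0.78 as a dashed line, 4 spike-in controls as short red ticks, and the members as points with standard errors over spots, placed at arbitrary heights; the open square is miR-27b-3p, detected on array 1 only. The 4 members detected on both arrays lie between 1.82 and 2.17, on the upper side of a wide distribution.

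A common scaling of each array reduces these differences by 1.71 and leaves the gaps between members as they are. Scaled levels were 5.46 ± 0.32 for miR-23a-3p, 5.38 ± 0.08 for miR-27a-3p, 6.23 ± 0.29 for miR-24-3p, 4.13 ± 0.32 for miR-23b-3p and 2.56 ± 0.22 for miR-27b-3p (log2 units, SD, n = 2). These SDs are set by the scaling: they were 1.29 to 1.53 without scaling and 1.05 to 1.29 with the percentile taken over all miRNAs. For miR-27a-3p the SD of 0.08 became 1.29 without scaling and 1.05 with that percentile. The signal of miR-27a-3p on array 1, 6.29, was itself the 75th percentile used for that array.

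In the authors' deposited table the array differences of the copies lay farther apart than in the spot intensities. Its log2 values were 4.59 on array 1 and 4.09 on array 2 for miR-23a-3p, and 3.52 and 2.31 for miR-23b-3p. They were 4.43 and 4.16 for miR-27a-3p, 2.02 and 0.35 for miR-27b-3p, and 5.24 and 4.65 for miR-24-3p. Array 1 minus array 2 was 0.50 for miR-23a-3p and 0.27 for miR-27a-3p, against 1.21 for miR-23b-3p and 1.67 for miR-27b-3p, and 0.58 for miR-24-3p. miR-27b-3p was not detected on array 2, where the scanner software listed a total of 0.1, as for the undetected passenger strands. Its 0.35 and 1.67 therefore do not rest on a detected signal. How the deposited values were normalized is not stated in any source used here. Relative to the log2 totals of detected probes they were not shifted by a constant. On array 1 these totals were 5.59 for miR-23a-3p and 4.26 for miR-23b-3p, against deposited values of 4.59 and 3.52. The scanner files' total for miR-23b-3p adds both probes on array 1 (19.1) but only the detected one on array 2 (3.35). From such totals the miR-23b-3p array difference was 2.51, and from the totals of both probes 2.12.

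**Figure D5:**
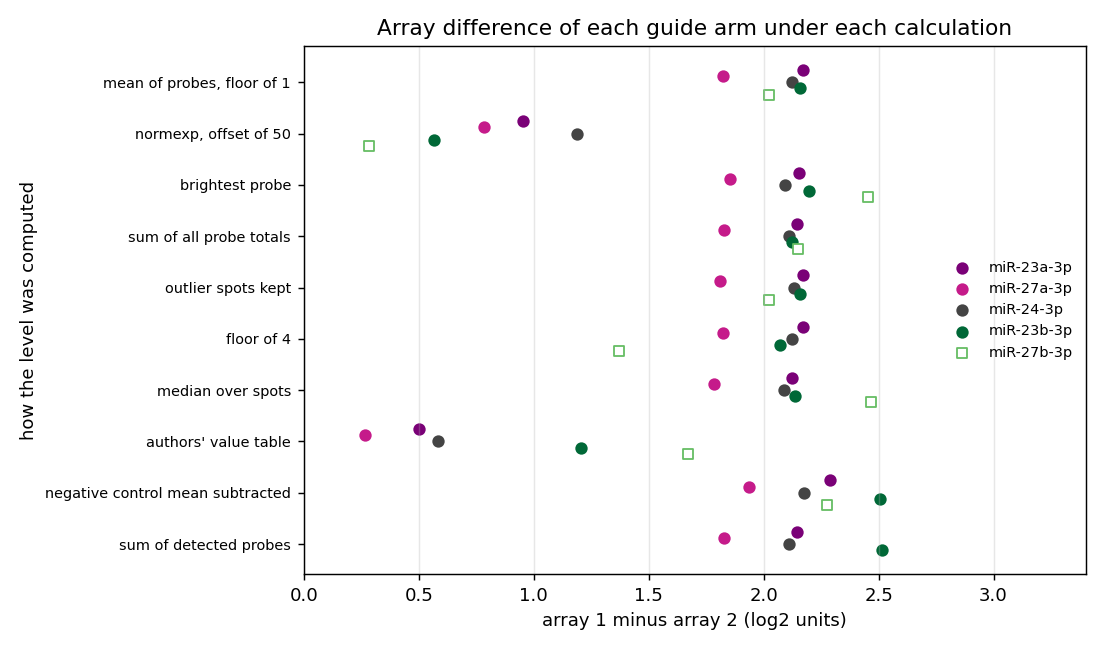
Array 1 minus array 2 (x axis, log2 units) of the 5 members under 10 ways of computing the level (y axis); filled circles are members detected on both arrays and the open square is miR-27b-3p, which has no value from detected probes alone. miR-23a-3p, miR-24-3p and miR-23b-3p lie together in most rows, and the b cluster copies lie above them in the authors' value table and below them under normexp. miR-23b-3p also lies above them where only detected probes are summed or the negative-control mean is subtracted.

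The passenger strands and antisense miRNAs of both loci were not detected. Of the 9 such miRNAs on the array, miR-23a-5p, miR-27a-5p and miR-24-2-5p of the a cluster, miR-23b-5p, miR-27b-5p and miR-24-1-5p of the b cluster, and miR-3074-5p, miR-3074-1-3p and miR-3074-2-3p from the opposite strands, 0 were detected on either array. Of all 1881 miRNAs, 16.6% were detected on array 1 and 10.7% on array 2, so most miRNAs of the array were not detected either. The 24 probes of these 9 miRNAs reached at most 0.53 times their errors. Of their spots, 0 of 261 on array 1 and 0 of 265 on array 2 were well above background. Their mean log2 signals were at most 0.65. The 5p arms of the Mir24 hairpins are the strands that differ between the loci, sharing the first 16 bases.
miR-24-2-5p: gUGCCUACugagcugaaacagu
miR-24-1-5p: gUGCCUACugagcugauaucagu
Neither was detected, so they carry no information on which locus the miR-24-3p came from. The best probe of miR-24-1-5p had totals of 0.25 and 0.53 times their errors on arrays 1 and 2, and that of miR-24-2-5p of -0.10 and -0.48 times.

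Other miRNAs with a member's seed were not detected either. Among the 1608 miRNAs of the array that had a RefSeq sequence, 4 others have the seed of miR-24-3p at bases 2 to 8, miR-5124b, miR-6369, miR-6410 and miR-6413. Of these 4, 0 were detected on either array, as was the case for most miRNAs: 16.6% of all 1881 were detected on array 1 and 10.7% on array 2. The highest probe total of these 4 was 0.51 times its error, for miR-6410 on array 1. The seed of miR-27 was found in miR-27a-3p and miR-27b-3p alone, and that of miR-23a-3p in no other of these 1608, which do not include miR-23b-3p.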

How the data were processed

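Exosome RNA was profiled on one-colour (Cy3) Agilent arrays, 1 per sample, and samples were grouped by their labels. Per the file headers, the deposited files give linear spot intensities from Agilent Feature Extraction 10.7.1.1. These were background-subtracted with detrending within an array, and not normalized between arrays. The labels' protocols name a linear-amplification cRNA kit and the file headers a miRNA scan protocol. The table of log2 values that the authors deposited has an unstated normalization and was an alternative only.

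Outlier spots were left out. For a level, log2 intensity was averaged over a probe's spots and then over probes, with intensities under 1 set to 1. For scaled levels, the 75th percentile of the 201 miRNAs that both arrays detected was subtracted per array, and the percentiles' mean added back. Spot errors combine the variances of the probes' spots. Negative-control spots, 1000 per array, averaged 0.47 ± 2.36 on array 1 and 1.37 ± 2.81 on array 2 (SD over spots). A single group allowed no comparison of conditions. Both arrays were on 1 slide and in 1 scan, per the file headers.

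The members, the list of other arms and the alternatives were chosen with earlier results of these data known. Text names are the members, the listed arms, miRNAs sharing a seed, 3 miRNAs closest in array difference and 6 markers of the source. The calculation was tested on simulated arrays of 1881 miRNAs, where built-in differences of 2.5 and 3.5 gave medians of 2.49 and 3.50. All simulated probes were held well above the floor, with the same spot noise and no added background. The check therefore covers the arithmetic and not dim signals such as those of the b cluster members on array 2. Alternatives were other detection rules, scalings, probe and spot summaries, background corrections and floors. Python 3.11.15, numpy 2.4.6, pandas 2.3.3, matplotlib 3.10.9, R 4.3.3 and limma 3.58.1 (normexp) were used.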

Additional observations from a re-analysis of the deposited data

How the results depend on the processing

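Detection of members was 4 under the 3 SD limit over negative controls and 3, without miR-23b-3p, when probe totals had to exceed 6 times their error or most of the spots well above background. Leaving out 1 array gave 4 to 5 members, and the other arms stayed at 0 under every detection rule run, also with either array left out. These rules called between 4.52% and 16.6% of all miRNAs. The median array difference of the 4 detected members, 2.14, was 0.87 with normexp and an offset of 50, which draws dim signals together by construction, and 0.54 in the authors' value table. It lay between 2.10 and 2.23 in the 7 other settings. For the miR-23 copies, the difference between their array differences of 0.01 became 0.39 with normexp, -0.71 in the authors' value table, and, in settings chosen after seeing the data, -0.22 with the negative-control mean subtracted and -0.37 from detected probes alone, which drop a miR-23b-3p probe on array 2. For the miR-27 copies, -0.20 became 0.50 with normexp, 0.45 with a floor of 4, -0.60 with the brightest probe, -0.68 with the median over spots and -1.40 in the authors' value table. Its sign thus depends on how the dim spots of miR-27b-3p on array 2, where it was not detected, are treated. No value was possible from detected probes. Array differences need both arrays and have no value with 1 left out. Levels of single members were recomputed 44 times under settings that can move their mean. Of these, 25 moved by more than the SD between arrays, all under settings that change the signal's scale, the floor or the probes, and 19 by less. No paired analysis was possible because there was 1 group.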
